A study of Sus scrofa with 12 samples.

Results

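MDM4, MDM2, CDKN1A, CDKN1B, GADD45A, BAX and ATM, 7 genes around the tumour suppressor p53, were followed in pig mesenchymal stromal/stem cells (MSCs) and in the extracellular vesicles (EVs) that these cells released. Members were found by their symbol, or by the pig Ensembl identifier of that symbol, among 29658 entries of the gene count table, and the entry with the most reads was used. An entry was found for 5 of the 7, and 4 of these had enough reads for the fit across all entries. GADD45A and BAX had no entry under either name and were not analysed here. The 7 genes were chosen with the EV and MSC values known, so the difference between EVs and MSCs is described for them and carries no p-value.

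The mRNA data were 3 MSC libraries and 3 EV libraries from 3 female domestic pigs aged 3 months, 1 pair per pig, with no other treatment or genotype in the labels. MSCs came from abdominal fat and were used at passage 3 after culture with platelet lysate, and EVs were pelleted from their supernatants by ultracentrifugation. Small-RNA libraries were made in the same 3 against 3 layout. Because each pig was one donor and the EVs were the product of its own culture, EV replicate 1 and MSC replicate 1 are the same animal, and likewise for replicates 2 and 3.

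p53 is a transcription factor that is kept low in unstressed cells and accumulates after DNA damage and other stress. MDM2 is the ubiquitin ligase that marks p53 for degradation, and MDM4 is its relative that binds p53 and blocks its activity, mostly without ligase activity of its own. ATM is a kinase activated by DNA double-strand breaks that phosphorylates p53, MDM2 and MDM4. CDKN1A (p21) is the classical p53 target and inhibits cyclin-dependent kinases (CDKs), CDKN1B (p27) is a related inhibitor that is controlled mainly at the protein level, GADD45A acts in growth arrest and repair, and BAX permeabilizes mitochondria in apoptosis. In MSCs this axis is known for its part in replicative senescence during culture.

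Counted reads were 10429085 to 12276855 per mRNA library, and no pair of libraries held identical values. The MSC markers CD44, NT5E and ENG were present, with a summed level of all 4 MSC markers of 438.6 to 1085 CPM (reads scaled to the library total) in MSCs and 499.8 to 612.7 CPM in EVs, while THY1 had 0 reads at an entry lying wholly inside the span of another one. Of the EV markers, CD63 was high in both groups and not higher in EVs (log2 fold change -0.526, adjusted p = 0.4354, edgeR). CD9 had 36 reads and ITGB1 10 reads over all libraries, at entries 99.9% and 100% covered by another one. The part of this overlap in their low counts was not tested. Markers of other cell types (PECAM1, PTPRC and CD14, 3 of 4 with an entry) summed to 56.09 to 62.5 CPM in MSCs and 45.73 to 63.4 CPM in EVs, most of it CD14, and CDH5 had no entry. PECAM1, an endothelial surface protein, stood at 16.65, 10.62 and 9.669 CPM in MSCs and 6.585, 1.562 and 3.136 CPM in EVs (log2 fold change -1.71, adjusted p = 0.2492, edgeR). Its part in the results below was not tested.

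MDM4, chosen with this contrast known, was the 1 tested member whose EV and MSC levels did not overlap. Of all entries tested, 14.3% had every EV library above every MSC library. Its entry (ENSSSCG00000015284, chromosome 9, 71509462 to 71546547, plus strand, susScr3 build according to the submitters' processing notes) has a gene model of 1846 bases and overlaps no other entry. MDM4 was covered by 130, 21 and 93 reads in the MSCs of pigs 1, 2 and 3 and by 278, 232 and 226 reads in the EVs of these pigs. Scaled to library size with TMM factors, these were 10.07, 2.01 and 7.888 CPM in MSCs and 23.47, 18.12 and 22.86 CPM in EVs. All 3 EV libraries were therefore above all 3 MSC libraries, with 18.12 CPM as the lowest EV value and 10.07 CPM as the highest MSC value.

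The mean MDM4 level in EVs was 21.49 ± 2.929 CPM, against 6.655 ± 4.168 CPM for MSCs (SD, n = 3 each). From the edgeR fit over all entries, the log2 fold change of MDM4 was 1.69 with a standard error of 0.539, a 3.22-fold difference. Within pigs, the log2 difference between EVs and MSCs was 1.22, 3.17 and 1.54 for pigs 1, 2 and 3. A fit blocked by pig gave a log2 fold change of 1.91 (SE 0.437). Each library is scaled to its own total in bulk, so a different mix of cells or vesicles and a different amount of RNA in each cannot be told apart.

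The coefficient of variation of MDM4 over 3 libraries was 62.6% in MSCs and 13.6% in EVs, and the highest value was 5.01 times the lowest in MSCs and 1.295 times the lowest in EVs. MSC replicate 2, with 21 reads, was the lowest library. Without it the highest MSC value was 1.28 times the lowest, about as in EVs, and the log2 fold change of MDM4 was 1.26. Leaving out MSC replicate 1 instead gave 2.11.

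By the thresholds used in the study, a fold above 2 with an unadjusted p under 0.05, MDM4 was the single member counted as higher in EVs, against 688 of 12392 entries tested (5.55%). No member was counted as lower, against 442 entries (3.57%). The same layout as for MDM4, with all EV libraries above all MSC libraries, was seen in 1769 entries (14.3%). With Benjamini-Hochberg adjustment over all entries, 0 members and 0 of 12392 entries passed in either direction (edgeR, lowest adjusted p 0.1285), although 1978 entries had an unadjusted p under 0.05. DESeq2 called 253 entries higher and 186 lower after adjustment, and the edgeR fit blocked by pig 61 higher and 75 lower. Since the genes were picked on this contrast, the member counts are given for the record only.

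**Figure D1:**
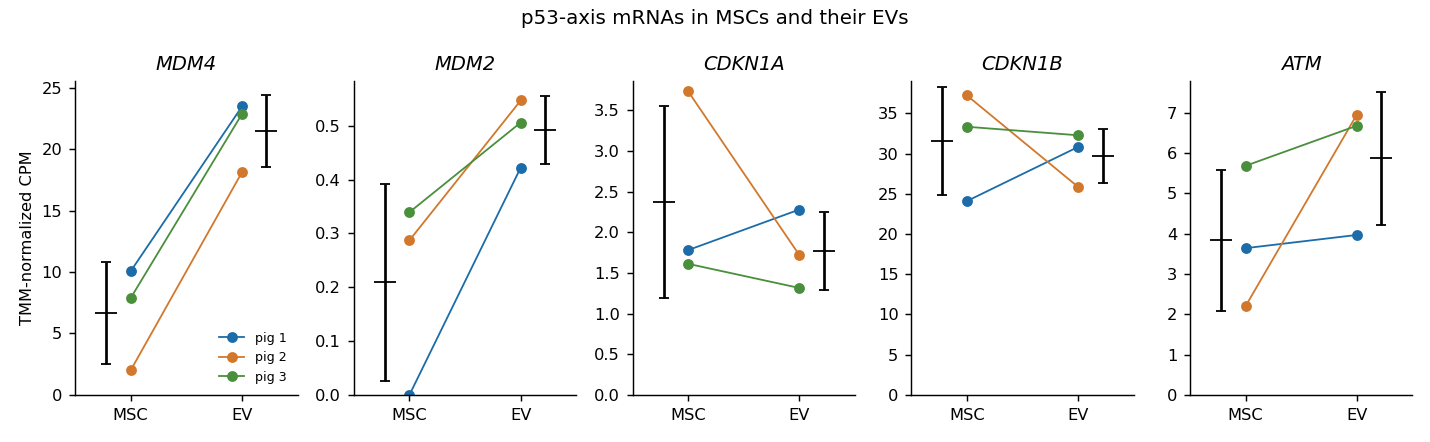
TMM-normalized CPM (y axis, linear from 0, with its own scale in each panel) of 5 p53-axis mRNAs in the MSC and EV libraries; points joined by a line are the same pig, and the horizontal bars with whiskers are the mean ± SD of 3 libraries. MDM4 lies at 2.01 to 10.07 CPM in MSCs and 18.12 to 23.47 CPM in EVs, whereas CDKN1A, CDKN1B and ATM overlap between the groups.

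MDM2, the partner of MDM4, was barely detected. The most-read entry (ENSSSCG00000000488, chromosome 5, 35889682 to 36061995, plus strand, 1892 bases) had 0, 3 and 4 reads in the MSC libraries and 5, 7 and 5 in the EV libraries. Each EV count exceeded each MSC count, by as little as 1 read. With 7 reads over the MSC libraries and 17 over the EV libraries, the EV to MSC ratio was 2.47, with an exact 95% interval of 0.974 to 7.05 that covers counting error only. On the log2 scale the ratio was 1.31, or 0.645 without MSC replicate 1 and 1.94 without MSC replicate 3. The interval includes equal levels, but it pools the reads of 3 pigs and leaves out their pairing and spread. As MDM2 was chosen with this contrast known, the interval is no test, and no difference is read from so few reads. In MSC replicate 1, a count of 0 allows up to 3 reads, or 0.255 CPM. A further entry named MDM2 (chromosome 5, 35889682 to 35919560) had 0 reads in all 6 libraries and lies wholly inside the entry used. The part of this overlap in the low counts was not tested.

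CDKN1A did not separate the groups. The entry (ENSSSCG00000001565, scaffold GL893630-2, 37127 to 44847, plus strand, 947 bases, no overlapping entry) held 23, 39 and 19 reads in the 3 MSC libraries, against 27, 22 and 13 in the EV libraries. The levels were 1.781, 3.733 and 1.612 CPM in MSCs and 2.28, 1.718 and 1.315 CPM in EVs. The MSC and EV ranges overlap, with the highest value in MSC replicate 2. Its log2 fold change was -0.41 with a standard error of 0.491, smaller than that error, and it was 0.07 without MSC replicate 2. Of the 3 pigs, pig 1 had more CDKN1A in EVs (0.36 on the log2 scale), and pigs 2 and 3 had less (-1.12 and -0.29).

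CDKN1B was the most abundant member and, of the 4 tested, the one with the lowest coefficient of variation in either group (21.4% in MSCs and 11.3% in EVs). It is listed by symbol on scaffold GL896456-1 (60416 to 65206, plus strand, 1649 bases), and an unnamed entry with 4 reads covers 75.3% of it. CDKN1B reads were 311, 389 and 393 in MSCs and 365, 331 and 319 in EVs. The mean level was 31.55 ± 6.752 CPM in MSCs and 29.65 ± 3.364 CPM in EVs (SD, n = 3 each), and the EV values of 25.85 to 32.27 CPM lay within the MSC range of 24.09 to 37.23 CPM. The log2 fold change was -0.09 with a standard error of 0.258. As for CDKN1A, pig 1 was higher in EVs (0.36) while pig 2 was lower (-0.53), and pig 3 was close to equal (-0.05).

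ATM was low, and its difference between EVs and MSCs was small once the trend over gene length was removed. Its entry is unusually long, spanning 966159 bases of chromosome 9 (39979276 to 40945434, plus strand) with a gene model of 12574 bases, and its span overlaps 20 other entries, among them ACAT1 with 5809 reads, AASDHPPT with 3736 and the minus-strand gene NPAT with 1786. The strand setting of the counting is not given in the sources used here, so reads of ATM and of the minus-strand neighbours cannot be told apart with certainty. A further ATM entry (ENSSSCG00000025606), annotated on the minus strand, had 1 read in all. ATM reads at the entry used were 47, 23 and 67 in MSCs and 47, 89 and 66 in EVs.

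The ATM level was 3.64, 2.201 and 5.683 CPM in MSCs and 3.968, 6.952 and 6.677 CPM in EVs. EVs were higher than their own MSCs in 3 of 3 pigs, by 0.125, 1.66 and 0.23 on the log2 scale, but the lowest EV value lay below the highest MSC value. The log2 fold change was 0.61 with a standard error of 0.452. With the trend of each library over gene length removed, the log2 fold change of ATM was 0.09 (SE 0.39), whereas that of MDM4 was 1.71 (SE 0.521).

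This length trend was a property of the whole table. Over the 12392 tested entries, the median log2 fold change was -0.13 in the shortest of 5 length classes (53 to 966 bases), which holds CDKN1A, and -0.08 in the middle class (1645 to 2451 bases), which holds MDM4 and CDKN1B. It was 0.19 in the longest class (3814 to 23619 bases), which holds ATM. MSC replicate 2 stood apart here, as its median deviation from the mean of 6 libraries was -0.32 in the longest class and the other 5 libraries stood between -0.015 and 0.15 there. In the middle class, the deviation of MSC replicate 2 was 0.06, while that of MDM4 in this library was -2.34.

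**Figure D2:**
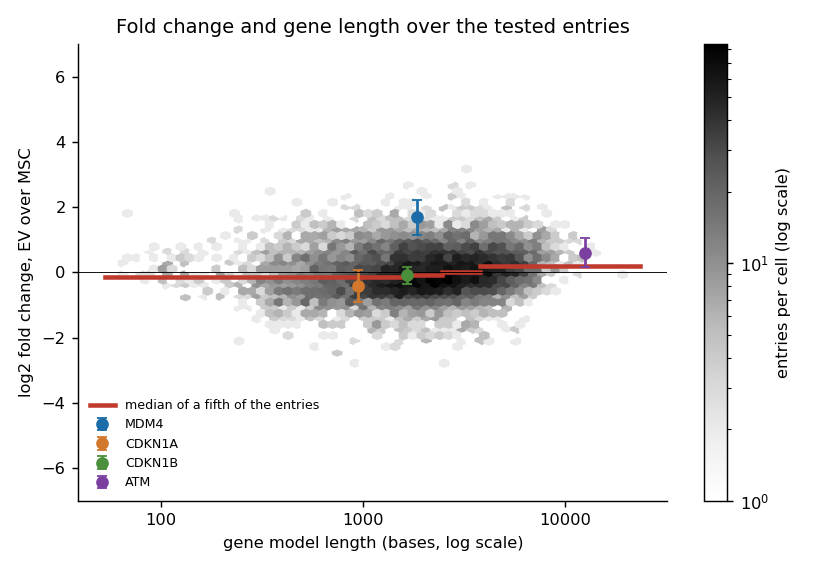
Log2 fold change of EVs over MSCs (y axis) against gene model length in bases (x axis, log scale); grey cells count the 12392 tested entries, red lines are the medians of 5 length classes of nearly equal size, and coloured points with whiskers are the log2 fold change ± SE of 4 members. The medians go from -0.13 in the shortest to 0.19 in the longest class, with ATM (0.61) at the long end and MDM4 (1.69) in the middle of the length range.

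Per length, as the deposited RPKM (reads scaled by gene length and by the mapped reads of the library), the members kept nearly the same order in all 6 libraries. CDKN1B was highest, followed by MDM4, CDKN1A, ATM and MDM2, and the exception was MSC replicate 2, in which CDKN1A stood above MDM4. Mean RPKM in MSCs and EVs was 5.06 ± 0.687 and 4.86 ± 0.466 for CDKN1B, 1.00 ± 0.679 and 3.15 ± 0.453 for MDM4, 0.653 ± 0.259 and 0.517 ± 0.183 for CDKN1A, and 0.0831 ± 0.0403 and 0.126 ± 0.0346 for ATM (SD, n = 3 each). MDM2 stood at 0.0284 ± 0.0253 RPKM in MSCs and 0.0705 ± 0.0115 RPKM in EVs. Among neighbours in this order, MDM4 and CDKN1A overlapped in MSCs but not in EVs, as did ATM and MDM2, while CDKN1B and MDM4 overlapped in neither.

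The RPKM ratio of CDKN1B to MDM4 was 1.47, 1.60 and 1.58 in the 3 EV libraries, and 2.68, 20.7 and 4.73 in the MSC libraries. MDM4 to CDKN1A was 5.28, 5.41 and 8.92 in EVs, and 2.90, 0.276 and 2.51 in MSCs. Both ratios had no overlap between EVs and MSCs. Both contain MDM4, which was chosen on this contrast, so this restates the MDM4 difference and is no further evidence. Taken over the 6 libraries, the mean RPKM of CDKN1B was above that of 67.6% of the tested entries, MDM4 above 43.8%, CDKN1A above 17.7% and ATM above 1.6%.

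Across libraries the members did not share a pattern. MSC replicate 2 held the lowest value of MDM4 and ATM and the highest value of CDKN1A and CDKN1B. To find mRNAs that followed MDM4, the centred log2 CPM over the 6 libraries was compared with that of 7729 tested entries with a symbol, by the root mean square difference on the log2 scale. The nearest were DGKH (0.131), a diacylglycerol kinase, ATAD2B (0.16) and BAZ2B (0.209), both bromodomain proteins, RC3H2 (0.201), an RNA-binding roquin protein, and GORAB (0.209), a Golgi protein. The median over all entries was 1.29, and ATM was at 0.855, CDKN1B at 1.31 and CDKN1A at 1.55. DGKH, for example, stood at 4.647, 0.67 and 2.884 CPM in MSCs and 10.05, 8.67 and 9.914 CPM in EVs.

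**Figure D3:**
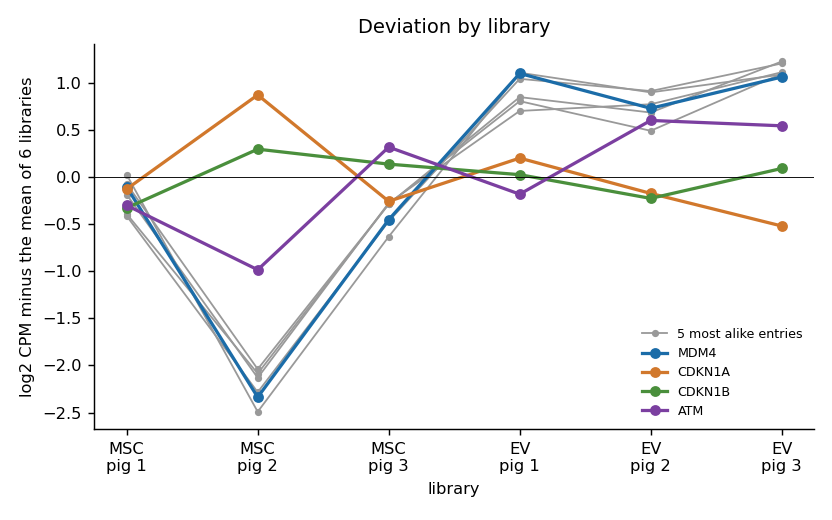
Log2 CPM of each library minus the mean over 6 libraries (y axis) for MDM4, CDKN1A, CDKN1B and ATM (coloured) and for the 5 mRNAs most like MDM4 (grey), over the MSC and EV libraries of 3 pigs (x axis). MDM4 and the grey lines drop in MSC replicate 2 (MDM4 at -2.34) and are above 0 in every EV library, while CDKN1A is highest in MSC replicate 2 (0.87).

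The wider p53 pathway was read from 6 lists with 105 genes, of which 86 had an entry and 61 were tested. With the study's thresholds, 3 were higher in EVs (RAD50, CCNG2 and APAF1), 1 was lower (BCL2L1) and 57 did not pass. These were 4.92% and 1.64% of the list genes tested, beside 5.55% and 3.57% of all entries. Of the list genes, 0 passed after adjustment over all entries, with edgeR or DESeq2, while 12 of the 61 (19.7%) had an unadjusted p under 0.05, beside 16.0% of all entries. The list genes had a median log2 fold change of -0.11 (27 above 0 and 34 below), beside -0.02 over all tested entries, and -0.185 beside -0.08 with the length trend removed. In the fit blocked by pig, 5 list genes were higher and 4 lower at the unadjusted thresholds, beside 992 (8.01%) and 641 (5.17%) of all entries. After adjustment in that fit, 2 were lower (E2F1 and E2F7) and 0 higher, against 75 entries lower (0.605%) and 61 higher (0.492%) of all tested. Unblocked and without MSC replicate 2, 1 list gene was higher and 6 lower unadjusted, beside 568 and 498 of all entries. Without EV replicate 3, 1 was higher and 3 lower, beside 532 and 607. Without MSC replicate 3, 6 were higher and 1 lower, beside 680 and 485.

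Sparse entries were common in the lists, and 1 list had no gene with enough reads to be tested. Of the 86 entries, 14 had 0 reads in every library and all 14 were at least 90% covered by another entry. Among list genes with up to 30 reads, 82.6% were covered in this way, compared with 31.7% of those above 30 reads, and over the whole table these shares were 48.9% and 22.2%. Whether this overlap accounts for the low counts was not tested.

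Regulators of p53, 12 tested, had a median log2 fold change of 0.33 (8 above 0), or 0.08 with the length trend removed, and none passed. SIRT1, a deacetylase of p53, had the largest positive value, 0.82 ± 0.349 (SE, adjusted p = 0.3108, edgeR), from a mean of 11.15 CPM in MSCs to 19.63 CPM in EVs. KAT5, an acetyltransferase of p53, had the largest negative one, -0.59 ± 0.409 (SE, adjusted p = 0.4681). The acetyltransferases EP300 and CREBBP, chosen after their values were seen, were among the best measured genes here, with 17689 and 14585 reads. Their log2 fold changes of 0.47 and 0.47 became 0.07 and 0.01 without the length trend.

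DNA damage signalling, the setting in which ATM acts, had 12 tested genes with a median log2 fold change of 0.475 (8 above 0), or 0.19 without the length trend, and their median gene model of 4048 bases exceeded the 2020 bases of all tested entries. RAD50, which with MRE11 and NBN binds broken DNA ends and recruits ATM, was at 39.19, 12.25 and 27.06 CPM in MSCs and 49.64, 62.64 and 76.58 CPM in EVs. All EV values of RAD50 lay above the MSC values, as in 14.3% of all entries tested. The log2 fold change of RAD50 was 1.265 ± 0.421 (SE, unadjusted p = 0.01786, adjusted p = 0.2571, edgeR, and 1.13 without the length trend). Without MSC replicate 2, in which RAD50 was lowest, it was 0.93, under the fold threshold. Its partners NBN and MRE11, chosen after their values were seen, had log2 fold changes of 1.04 ± 0.482 and 0.425 ± 0.352 (SE, adjusted p = 0.3311 and 0.5363), and neither passed.

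Arrest and repair genes, 13 tested, had 6 values above and 7 below 0, with a median of -0.27, or -0.49 without the length trend. Whether each of them responds to p53 in these cells was not tested. CCNG2, an atypical cyclin linked to cell cycle arrest, was at 39.03, 43.55 and 41.39 CPM in MSCs and 63.4, 69.67 and 152.2 CPM in EVs. The MSC values were nearly equal and all EV values exceeded them, as in 14.3% of all entries tested. The log2 fold change of CCNG2 was 1.202 ± 0.362 (SE, unadjusted p = 0.01139, adjusted p = 0.2426, edgeR). Without EV replicate 3, the highest library, the log2 fold change was 0.69. E2F7, an atypical E2F that represses cell cycle genes and was chosen after its values were seen, had 181, 17 and 217 reads in its MSC libraries and 39, 2 and 46 in its EV libraries. It was lower in EVs in 3 of 3 pigs with low values for pig 2 in both compartments, and its adjusted p was 0.04444 when blocked by pig and 0.3662 when not (edgeR). The unblocked log2 fold change was -2.08, or -1.48 without EV replicate 2 and -2.72 without EV replicate 3.

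Apoptosis genes, 15 tested, included 5 values above and 10 below 0, with a median of -0.43 (-0.425 without the length trend). APAF1, the scaffold of the apoptosome that activates caspase-9, stood at 70.4, 29.96 and 67.09 CPM in MSCs and 113.2, 134.3 and 99.14 CPM in EVs. Its log2 fold change was 1.05 ± 0.349 (SE, unadjusted p = 0.01792, adjusted p = 0.2571, edgeR), but 0.77 without the length trend and 0.75 without MSC replicate 2, both under the fold threshold. BCL2L1, which encodes the survival protein BCL-xL, was at 4.414, 2.584 and 3.138 CPM in MSCs and 1.098, 0.703 and 1.619 CPM in EVs. The log2 fold change of BCL2L1 was -1.57 ± 0.474 (SE, unadjusted p = 0.01129, adjusted p = 0.2426), at an entry 92.9% covered by another one. BAK1, the close relative of BAX and chosen after its values were seen, had a log2 fold change of -0.50 ± 0.253 (SE, adjusted p = 0.3551).

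CDK inhibitors, CDKs, cyclins and the RB and E2F genes they act on, 9 tested besides CDKN1A and CDKN1B, had 9 of 9 log2 fold changes below 0 (beside 50.9% of all entries) and a median of -0.52, or -0.58 without the length trend, and none passed. Blocked by pig, 6 of 9 were below 0, and without the length trend 8 of 9. CDKN2C, an inhibitor of CDK4 and CDK6, fell short of the fold threshold at 30.98, 22.97 and 30.53 CPM in MSCs and 17.98, 14.29 and 11.63 CPM in EVs (log2 fold change -0.94 ± 0.28 SE, adjusted p = 0.2409, edgeR). E2F1, the activator of S-phase genes, was covered by 496, 66 and 567 reads in the MSC libraries and by 179, 9 and 85 in the EV libraries. Every EV value was below that of its own MSCs, and pig 2 was lowest in both, so that EVs and MSCs overlapped unless pigs were matched. The log2 fold change of E2F1 was -1.93 ± 1.02 (SE, adjusted p = 0.3671) without the block and -2.23 (adjusted p = 0.04036) when blocked by pig. Unblocked, it was -2.75 without EV replicate 1 and -1.36 without EV replicate 2.

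**Figure D4:**
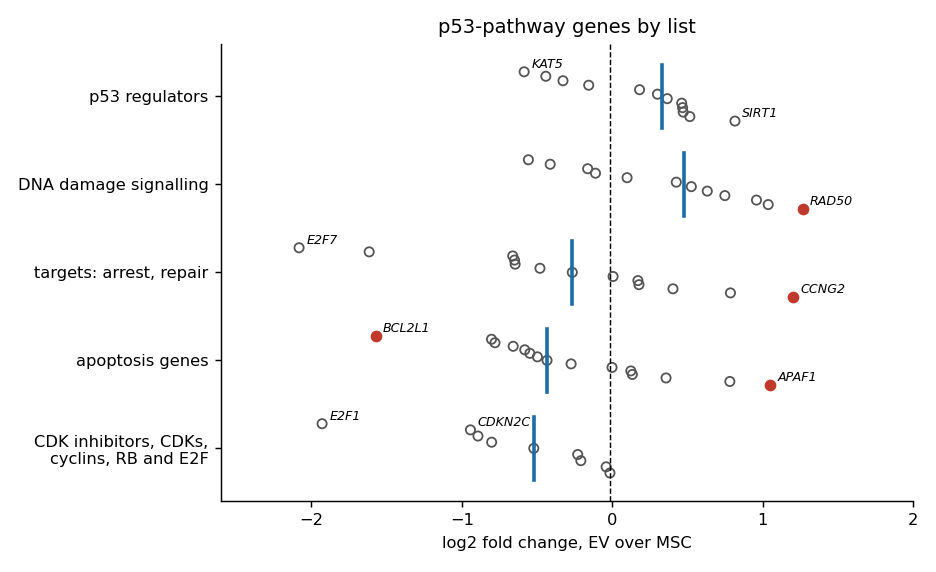
Log2 fold change of EVs over MSCs (x axis) for 61 tested p53-pathway genes in 5 lists (rows); open circles did not pass, red filled circles passed the unadjusted thresholds, the blue bar is the list median and the dashed line is the median of all tested entries (-0.02). Medians range from 0.475 for DNA damage signalling to -0.52 for CDK inhibitors, CDKs, cyclins, RB and E2F, and the 9 genes of that last list lie at or to the left of 0 here, but 6 of 9 do when blocked by pig.

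The small-RNA libraries are a separate assay but no independent readout, since the genes and miRNAs were chosen with earlier results of these data known. The paper also lists MDM4 and MDM2 among EV-enriched mRNAs that its EV-enriched miRNAs are predicted to target. Of 23 miRNA names listed, 20 are linked to the axis and 3 (miR-183, miR-378 and miR-140) were listed because the study had called them on these same libraries. An entry was found for 20 of the 23, with 25 mature miRNAs, of which 24 were tested. Depth was very uneven, with 9455607 to 15395871 counts in the MSC libraries and 656888, 19454 and 18374 in EV replicates 1, 2 and 3. A count of 0 in an EV library thus allows up to 4.57, 154 and 163 CPM. By the study's thresholds 3 listed miRNAs were higher in EVs (miR-183, miR-192 and miR-504), against 14 of 220 miRNAs tested (6.36%), and 6 were lower (miR-15a, miR-17-3p, miR-34c, miR-140-5p and both arms of miR-145), against 53 (24.1%). Without the names taken from the study, whose direction is no independent evidence, 2 of 20 were higher and 5 lower, with a median log2 fold change of -1.14. These 20 still include miR-222, which the study had called too. None passed after adjustment with edgeR, where 9 of the 24 (37.5%) had an unadjusted p under 0.05, against 67 of all 220 (30.5%), and DESeq2 called 3 higher and 2 lower. Blocked by pig, 1 was higher and 1 lower at the unadjusted thresholds. Without EV replicate 3, 4 were higher and 12 lower at these thresholds, of which 4 and 10 passed after adjustment. Lower calls of that setting such as miR-16, miR-20b and miR-106a had 0 counts in EV replicates 1 and 2. Without any 1 of the MSC libraries 1 was higher and 2 lower. For DESeq2, the block and the left-out libraries no share over all miRNAs is given, so these counts are not read as particular to the list. The list median of -1.019 was close to the median of -0.999 over all miRNAs. TMM factors ran from 0.306 in MSC replicate 3 to 3.24 in EV replicate 3, so the log2 fold changes differ from ratios of the deposited CPM. The titles of both replicate 3 libraries also differ in form from those of the other small-RNA libraries. The labels used here do not say why, and this cannot be told apart from a difference of pig 3.

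Of the 6 lower miRNAs, 4 (miR-15a, miR-17-3p, miR-34c and miR-140-5p) had at most 3 counts in every EV library, and no fold is given for them. miR-15a, for example, which is processed from a p53-responsive cluster and was at 16.97 to 51.02 CPM in MSCs, had 0 counts in all EV libraries. That MSC level lies above the limit of 4.57 CPM in EV replicate 1 and below those of EV replicates 2 and 3, so a difference was not detectable in the latter pair at their depth.

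miR-34a, whose host gene is a direct p53 target, was at 1421, 2868 and 163.3 CPM in MSCs and 368.4, 51.40 and 598.7 CPM in EVs, the EV values from 242, 1 and 11 counts. In deposited CPM the groups overlapped and EVs were higher in pig 3, whereas with the TMM factors of the fit the levels were 548.6 to 2724 CPM in MSCs and 72.43 to 448.2 CPM in EVs, lower in EVs in 3 of 3 pigs. The log2 fold change was -2.57 ± 1.14 (SE, adjusted p = 0.1753, edgeR). miR-145-5p, also induced through p53, was at 3358, 1672 and 907.5 CPM in MSCs and 216.2, 51.40 and 163.3 CPM in EVs, the latter from 142, 1 and 3 counts. EVs were lower in 3 of 3 pigs in deposited CPM and with TMM or RLE factors, and the log2 fold change was -4.21 ± 1.08 (SE, adjusted p = 0.08133, or 0.5301 when blocked by pig).

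CDKN1B is a known target of miR-221 and miR-222. miR-222 was at 2928, 2901 and 612.8 CPM in MSCs and 5716, 7454 and 9851 CPM in EVs, higher in EVs in 3 of 3 pigs under each scaling, with a log2 fold change of 1.48 ± 0.769 (SE, adjusted p = 0.2438, edgeR). miR-221-3p stood at 9163, 7953 and 1429 CPM in MSCs and 1367, 1645 and 12300 CPM in EVs, lower in EVs in pigs 1 and 2. In pig 3 it was higher in EVs in deposited CPM and with RLE factors but not with TMM factors (4800 CPM in MSCs and 4609 CPM in EVs). The log2 fold change of miR-221-3p was -1.29 ± 0.784 (SE, adjusted p = 0.3225). CDKN1B mRNA meanwhile stayed within 24.09 to 37.23 CPM in all 6 mRNA libraries.

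miR-125b, another abundant miRNA of the list, was at 569.4, 4549 and 12980 CPM in EVs and 8091, 6921 and 2799 CPM in MSCs, higher in EVs in pig 3 in deposited CPM and with RLE factors but in no pig with TMM factors, and had a log2 fold change of -0.99 ± 0.938 (SE, adjusted p = 0.5359, edgeR). For CDKN1A, the miR-17 family is the best-known miRNA regulator. miR-17-5p was at 1.52, 0 and 8481 deposited CPM in EV replicates 1, 2 and 3, from 1, 0 and 155.83 counts. Its MSC level was 259.0 to 447.7 CPM, so it was higher in EVs in pig 3 only. The EV level thus rested on EV replicate 3. The direction of miR-222 is likewise not independent evidence, since the study had called it too. miR-183 was at 2710, 6477 and 3973 CPM in EVs and 20.52 to 689.3 CPM in MSCs (log2 fold change 3.55 ± 1.23 SE, adjusted p = 0.1013).

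**Figure D5:**
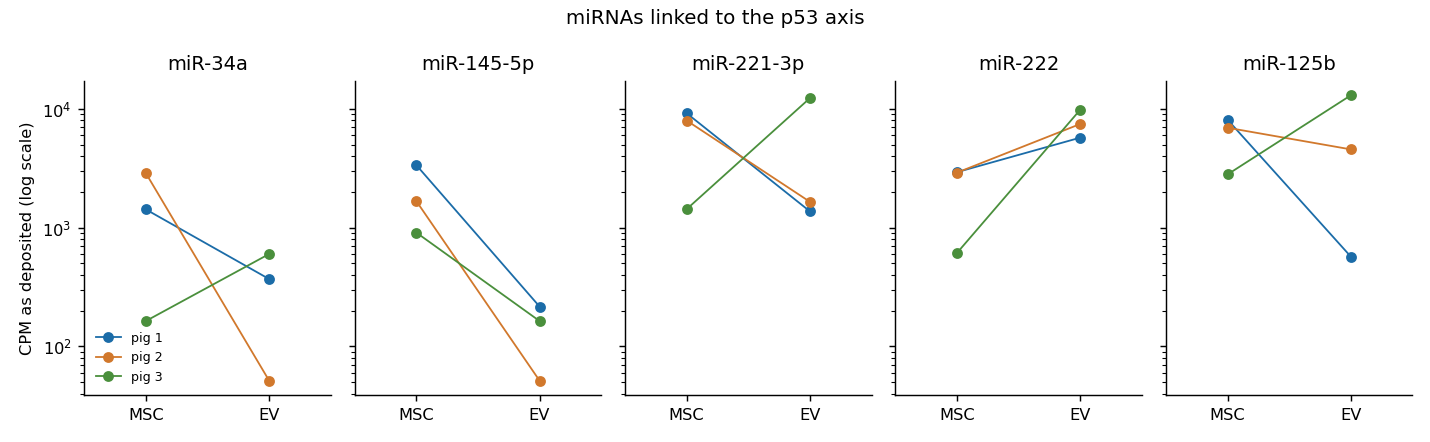
Deposited CPM (y axis, log scale) of 5 miRNAs linked to the p53 axis in the MSC and EV small-RNA libraries; points joined by a line are the same pig. miR-145-5p is lower in EVs and miR-222 higher in EVs in all 3 pigs, whereas miR-34a, miR-221-3p and miR-125b are higher in EVs in pig 3 and lower in pig 1. With TMM factors in place of the deposited CPM, these 3 miRNAs are lower in EVs in pig 3 as well.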

How the data were processed

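mRNA libraries of 3 MSC and 3 EV samples were aligned by the authors with TopHat and counted on genes with featureCounts, and the deposited table holds raw counts per gene together with RPKM that the authors scaled to mapped reads and gene length. The submitters' processing notes name the build susScr3 and also HTSeq. For small RNA, the authors ran CAP-miRSeq and deposited expected counts, in which reads matching several precursors are shared, and CPM. The labels name a stranded total RNA kit and the paper's methods another TruSeq kit, and the strand setting of the counting is not given in the sources used here.

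Of the table, 3 entries shifted by a column were left out and 29658 used, of which 4336 were named by symbol and 11802 of 25322 Ensembl identifiers matched a symbol of the RefSeq Sscrofa11.1 tables. Overlap of entries was computed from their spans.

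The comparison of EVs against MSCs used edgeR 4.0.16 under R 4.3.3 (TMM, filterByExpr, quasi-likelihood test, Benjamini-Hochberg adjustment over all entries), which replaced the t-test of the study because the values are counts. miRNA expected counts were rounded to whole numbers first. Standard errors are the log2 fold change divided by the root of F. Alternatives were RLE factors, DESeq2 1.42.0, no filter beyond 1 read, the pig as a block, the length trend removed by a loess offset per library, limma 3.58.1 on log2(RPKM + 1), summed entries of a symbol, and leaving out each library; the block with the length trend removed was added after seeing the data.

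Pairing by pig comes from the labels; deviations from the group means correlated at 0.251, 0.384 and 0.408 in libraries of the same pig and at -0.364 to -0.038 in those of different pigs. The small-RNA titles number the pigs differently, so pairs were used within an assay only.

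The members, lists and miRNAs were chosen with earlier results of these data known. Named were the members, in each list up to 3 genes per direction with the largest change past the unadjusted thresholds or else the 2 largest changes, the 5 mRNAs most like MDM4, and tested listed miRNAs, the most read with values. An item that the rule also names is not reported here. Counting error alone is covered by the intervals and by the 3-count limit set for a value of 0, as reads carry no molecular identifiers. The proteomic and cell experiments were not analysed here.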

Additional observations from a re-analysis of the deposited data

How the results depend on the processing

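All tested members kept their direction under every alternative run except that the log2 fold change of CDKN1A was 0.07 without MSC replicate 2 and that of CDKN1B 0.05 without it and 0.01 without EV replicate 2. MDM4 ranged from 1.11 (limma on log2(RPKM + 1)) to 2.11 (without MSC replicate 1). MDM2 did not pass the filter and was not refitted. The 9 other named genes gave 117 values under alternatives, with 11 losing and 10 gaining a call and 0 reversed.

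With the pig as a replicate block, adjusted calls over all entries went from 0 to 61 higher and 75 lower (91 and 137 with the length trend also removed, where 685 were lower unadjusted). In that blocked fit the pathway lists had 5 genes higher and 4 lower unadjusted and 2 lower adjusted (with the length trend removed 4 lower unadjusted, 3 lower adjusted), and the miRNA list 1 higher and 1 lower. limma gave 233 entries higher and 194 lower unadjusted, 1 higher and 10 lower adjusted, and 0 pathway genes in either direction. DESeq2 gave 253 higher and 186 lower adjusted, 3 pathway genes lower unadjusted beside 537 of all entries, and 3 miRNAs higher and 2 lower adjusted. Without the filter, 5 entries were lower adjusted.

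Leaving out 1 library gave 511 to 948 entries higher and 270 to 607 lower unadjusted, the 270 without EV replicate 2, and 0 adjusted. Pathway genes ranged from 1 to 6 higher (1 without EV replicate 3 or MSC replicate 2, 6 without MSC replicate 3) and 1 to 6 lower (6 without MSC replicate 2). Of all entries, 532, 568 and 680 were higher without EV replicate 3, MSC replicate 2 and MSC replicate 3, and 498 were lower without MSC replicate 2. Listed miRNAs ranged from 1 to 4 higher and 2 to 12 lower unadjusted, and 0 to 4 higher and 0 to 10 lower adjusted. The upper ends were all without EV replicate 3. The cause was not tested. No share over all miRNAs is given for these settings, so the counts are not read as particular to the list.

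With 3 libraries per group and 18374 to 656888 counts in the EV small-RNA libraries, precision is limited, and listed miRNAs at or near 0 in EVs cannot be ranked.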
